A study of Homo sapiens with 4 samples.

Results

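ZNF genes encode zinc finger proteins, and 127 of them were carried by MDA-MB-231 cells at a mean of at least 2 FPKM over 4 polysome profiling libraries. The members were chosen by symbol (ZNF, a number and at most 1 further letter), by the class mRNA in the deposited table and by that mean level, which is therefore a description here and not a finding. The table holds 510 ZNF mRNAs among 19316 mRNAs and 28198 genes. Of these 510, 383 had a lower mean and 37 were at 0 in each library. FPKM are fragments per kilobase of transcript, scaled to the mapped fragments of the library. ZNF689 and ZNF559 lay just below the limit with means of 1.98 and 1.99 FPKM, and ZNF740 and ZNF738 just above it with 2.02 and 2.04 FPKM.

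MDA-MB-231 is a human breast cancer cell line, here depleted of METTL3 and reconstituted by lentivirus with either METTL3 WT or METTL3 K177Q. METTL3 is the catalytic subunit of the complex that writes N6-methyladenosine (m6A) on mRNA, and K177Q replaces a lysine with glutamine to mimic its acetylation. All cells received cycloheximide, which holds ribosomes on mRNA, at 100 µg/mL for 5 min, and lysates were separated on 10 to 50% sucrose. Gradient fractions of each genotype were pooled into sub-polysomes (free ribosomal subunits and single ribosomes) and polysomes (several ribosomes on 1 mRNA). The 4 libraries are all labelled replicate 2, with 1 library per condition, and other replicates were not analysed here, so the values below carry no error from replicates, and the genotypes are compared without a test.

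Zinc finger proteins of the C2H2 kind fold short repeats around zinc, each held by a pair of cysteines and a pair of histidines, and most of them bind DNA through arrays of such fingers. Many also carry a KRAB domain, which recruits the co-repressor TRIM28 and with it histone methyltransferases, and many of these silence transposable elements. The KRAB genes lie in clusters, above all on chromosome 19, where they multiplied by duplication and so resemble each other in sequence. Other ZNF proteins lack KRAB and act in ribosome assembly, in RNA handling, or as transcription factors.

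The repeat pattern of the fingers can be seen in 1 finger unit from each of 4 members. Fragments from closely alike repeats can match more than 1 gene, which these units, 50.0 to 69.2% identical, do not show. ZNF254 and ZNF585A have a match to a KRAB pattern and lower translation efficiency in METTL3 K177Q cells. ZNF316 is the 1 member with such a match that was at least 1.5-fold higher, and ZNF664 is a member without a KRAB match. Each line gives 78 bases of the coding strand, 5′ to 3′, from GRCh38, in the last exon of the GENCODE 44 canonical transcript. Capitals mark the codons of the cysteines, the histidines and the linker TGEKP that joins neighbouring fingers.
ZNF254: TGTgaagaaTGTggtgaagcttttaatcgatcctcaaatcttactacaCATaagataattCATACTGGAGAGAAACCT
ZNF585A: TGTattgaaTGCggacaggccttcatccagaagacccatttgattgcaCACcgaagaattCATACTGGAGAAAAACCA
ZNF316: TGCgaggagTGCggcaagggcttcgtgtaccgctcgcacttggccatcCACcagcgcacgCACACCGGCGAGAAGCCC
ZNF664: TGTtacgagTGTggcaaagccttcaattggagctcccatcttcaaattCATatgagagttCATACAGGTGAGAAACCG
The ZNF254 unit lies in exon 4 of 4 at chr19:24126802-24126879 on the plus strand, and that of ZNF585A in exon 5 of 5 at chr19:37153008-37153085 on the minus strand. The ZNF316 unit lies in exon 9 of 9 at chr7:6652719-6652796 and that of ZNF664 in exon 5 of 5 at chr12:124012409-124012486, both on the plus strand. Without gaps, ZNF254 and ZNF664 were identical at 54 of the 78 bases (69.2%), the most among the 6 pairs, and ZNF254 and ZNF316 at 39 bases (50.0%), the fewest.

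Between 15773 and 16193 genes per library were above 0, and FPKM summed to between 767949 and 1037594 per library, so the values are not TPM. The file gives no counts. Taking the lowest cluster of FPKM times transcript length as 1 fragment, the libraries held about 24400000 to 26400000 fragments, and standard errors (SE) below are derived from that and cover counting error only. The breast line's markers VIM, CD44, CAV1, AXL and KRT18 were carried, with VIM at 677 to 1543 FPKM. ESR1 and PGR did not exceed 0.0119 FPKM, CDH1 did not exceed 0.632 FPKM, while EPCAM (6.20 to 9.91 FPKM) and ERBB2 (12.2 to 28.3 FPKM), listed as absent or low, were present. Of the other-cell markers PTPRC, PECAM1, ALB and COL1A1, the highest value was 2.59 FPKM (COL1A1). METTL3 stood at 9.39 and 38.7 FPKM in the sub-polysome and polysome libraries of METTL3 WT cells and at 5.07 and 29.5 FPKM in those of METTL3 K177Q cells, values that do not tell the K177Q codon from the WT one.

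The members were less abundant than the mRNAs kept by the same limit, a description only, since the level was part of their choice. Their median mean level was 5.43 FPKM, against 13.2 FPKM for the 9169 mRNAs with a mean of at least 2 FPKM, which serve as background throughout. Of the 127 members, 90 lay under 10 FPKM, 37 at or above it and 8 above 50 FPKM. Together they made up 0.254% and 0.198% of all FPKM in the METTL3 WT sub-polysome and polysome libraries, and 0.215% and 0.189% in those of METTL3 K177Q cells. At least 1 FPKM was reached in each library by 126 members.

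ZNF593, whose yeast relative escorts the large ribosomal subunit out of the nucleus, was the most abundant member. It measured 340.8 FPKM in WT sub-polysomes, 222.1 in WT polysomes, 295.5 in K177Q sub-polysomes and 155.1 in K177Q polysomes. ZNF580 followed with 163.6, 96.6, 181.5 and 80.5 FPKM in the same order. In both genes, as in ZNF787, ZNF358, ZNF428 and ZNF511, which complete the 6 highest means, each sub-polysome value exceeded the polysome value of its genotype. ZNF787 gave 140.5, 99.1, 164.4 and 95.0 FPKM, and ZNF428 gave 142.7, 67.4, 139.8 and 51.1 FPKM. ZNF358 stood out among them with 164.6 FPKM in WT sub-polysomes against 39.2 in WT polysomes, and 175.4 against 36.7 in K177Q cells. ZNF511 gave 130.2, 46.9, 114.6 and 38.0 FPKM, with 44.3% of its 50-base words found in other genes. For ZNF358 that share was 19.4%.

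Translation efficiency was the ratio of polysome to sub-polysome FPKM, here on the log2(FPKM + 0.1) scale. In METTL3 WT cells its median over the ZNF genes was -0.05, against 0.20 over all background mRNAs. Polysome values were at least 1.5-fold above sub-polysome values for 16 members (background 30.2% of mRNAs) and at least 1.5-fold below for 35 (background 15.7%). In METTL3 K177Q cells the median was -0.00094 against 0.22, with 27 members higher (background 31.9%) and 38 lower (background 18%). ZNF mRNAs were thus 12.6% and 27.6% in the higher and lower classes in WT cells, and 21.3% and 29.9% in K177Q cells. Relative to the background median, which a change of library scaling moves alike, the members stood 0.25 lower in WT and 0.22 lower in K177Q cells.

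The low polysome share was most marked in the more abundant members. The 37 at or above 10 FPKM had a median of -0.48 in WT cells, while the 5274 background mRNAs at that level had 0.29. The 90 members from 2 to under 10 FPKM had 0.08, close to the 0.10 of their 3895 background mRNAs. Still, 20 of the 90 were 1.5-fold lower in polysomes (22.2%, background of that level 16.5%) and 12 higher (13.3%, background 23.8%). The 17 members with over 10% of their 50-base words in other genes had a median of -0.62, with 10 lower (58.8%). The 110 others had -0.0024, with 25 lower (22.7%). Among members with at least 1 FPKM in each library, ZNF622, a factor that matures the large ribosomal subunit in the cytoplasm, had the highest value in WT cells, 1.99 (10.5 FPKM in sub-polysomes and 41.9 in polysomes). It was mostly in polysomes in K177Q cells too, with 10.9 and 36.3 FPKM. ZNF341, a transcription factor for STAT3, came next, with 1.84 and 3.90 FPKM in WT and 1.68 and 4.11 FPKM in K177Q cells. The lowest values belonged to ZNF358 (-2.07), ZNF544 (-1.71) and ZNF385A (-1.67). Of their 50-base words, 19.4%, 12.6% and 0% occurred in other genes. ZNF37A, named after its values were seen, lay at -2.36 but is the 1 member under 1 FPKM in a library (0.970 FPKM in K177Q polysomes).

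**Figure D1:**
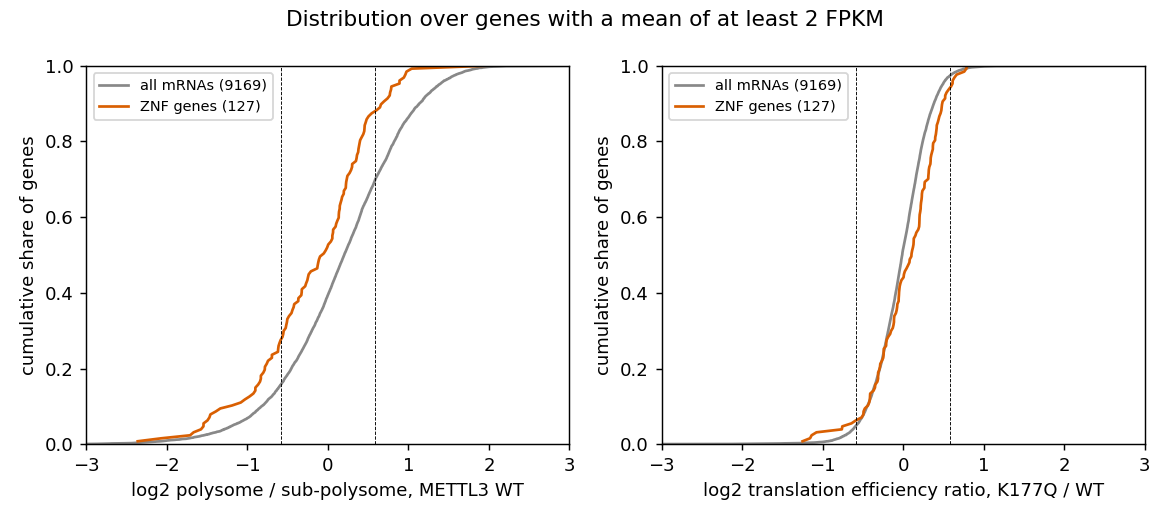
Cumulative share of genes (vertical axis) against the log2 polysome to sub-polysome ratio in METTL3 WT cells (left) and against the log2 ratio of translation efficiency between METTL3 K177Q and METTL3 WT cells (right), for the 127 ZNF genes and all 9169 background mRNAs; dashed lines mark 1.5-fold. On the left the ZNF curve lies to the left of all mRNAs (medians -0.05 and 0.20). On the right the lower quartiles are alike (-0.23 for both), while the upper quartile is 0.34 for ZNF genes and 0.20 for all mRNAs.

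Whether METTL3 K177Q cells differed from METTL3 WT cells in translation efficiency was read from the difference of these log2 values. Its median over the ZNF genes was 0.10, against -0.01 over the background. It was above 0 for 72 of 127 members and for 4437 of 9169 background mRNAs. At 1.5-fold, 8 members were higher (6.30%, background 2.56%) and 8 lower (6.30%, background 4.96%). Scaling each library to the same total (TPM) moved the median over all mRNAs to 0.28. The split of members became 39 higher (30.7%, background 16.2%) and 4 lower (3.15%, background 1.01%). With totals set without ribosomal protein genes it was 30 (23.6%, background 11.8%) and 4 (3.15%, background 1.43%). The distance of the ZNF median from the background median was 0.12 under both, which is no check, since scaling shifts all genes nearly alike.

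From 2 to under 10 FPKM, 8 of 90 members were higher (8.89%, against 5.13% of background mRNAs of that level) and 6 lower (6.67%, against 4.85%), with a median of 0.20 against 0.10. At or above 10 FPKM, 0 of 37 were higher (background 0.664%) and 2 lower (5.41%, background 5.04%), with a median of -0.09 against -0.08. The counts of the abundant members were thus near those of all mRNAs at their level. The SE of a member's log2 ratio had a median of 0.14 and ran from 0.03 to 0.31. For 7 of the 16 members past 1.5-fold the interval of 1 SE held the threshold, and 15 further members lay within 1 SE of it.

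**Figure D2:**
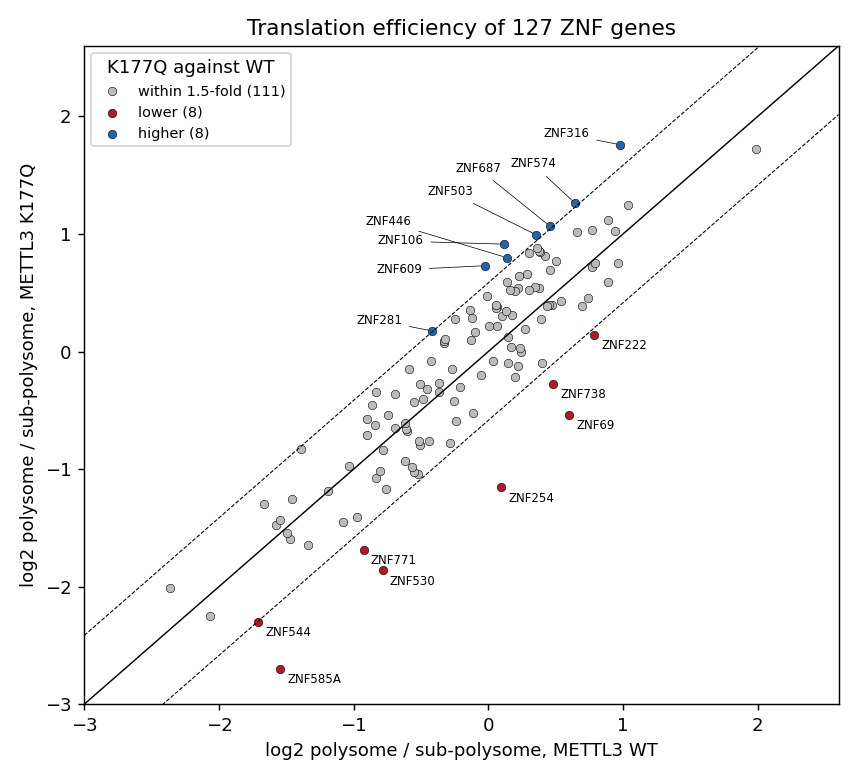
Log2 polysome to sub-polysome ratio in METTL3 WT (horizontal axis) and METTL3 K177Q cells (vertical axis) for each of the 127 ZNF genes, 1 library per fraction and genotype; the solid line marks equal values and the dashed lines 1.5-fold. The 8 lower genes reach down to -1.25 (ZNF254) from the diagonal and the 8 higher ones up to 0.80 (ZNF106).

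The 8 members with lower translation efficiency in K177Q cells were ZNF254, ZNF585A, ZNF69, ZNF530, ZNF771, ZNF738, ZNF222 and ZNF544. All 8 had more sub-polysome and less polysome FPKM in K177Q than in WT cells as deposited. They were chosen on the ratio of these fractions, so this direction is in part set by that choice. It also shifts with library scaling. Of the 8, 7 lie on chromosome 19 and 6 have a KRAB match, against 40 and 34 of all 127 members. ZNF222 falls outside the rule for named genes and was named after its values were seen.

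ZNF254 (chr19:24033405-24129968) had the lowest ratio. It measured 2.25 FPKM in WT sub-polysomes and 2.41 in WT polysomes, and 2.696 and 1.16 FPKM in those of K177Q cells. The genotypes were close in sub-polysomes, while K177Q polysomes held the lowest of the 4 values, for a log2 ratio of -1.25 (SE 0.20). ZNF69 (chr19:11887782-11914329) was at a like level, with 1.91, 2.95, 2.39 and 1.62 FPKM and a ratio of -1.14 (SE 0.25). Its WT polysome value was the highest of the 4 and its K177Q polysome value the lowest.

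ZNF585A (chr19:37106734-37172741), with 21 finger matches the most of any member, measured 11.1 and 3.75 FPKM in WT sub-polysomes and polysomes and 16.5 and 2.46 in those of K177Q cells. Both fractions differed, in opposite directions, and the ratio was -1.16 (SE 0.09). Of its 50-base words 18.3% occur in other genes. ZNF530 (chr19:57599885-57612722) differed mainly in sub-polysomes: 3.49 FPKM in WT against 7.11 in K177Q cells, with polysomes at 1.98 and 1.89 FPKM and a ratio of -1.08 (SE 0.16). It was the 1 member that was 1.5-fold higher in K177Q sub-polysomes.

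ZNF771 (chr16:30407414-30431108), the 1 lower member off chromosome 19, was also the most abundant of the 8, with 44.1 and 23.1 FPKM in WT and 48.6 and 15.01 FPKM in K177Q cells. The sub-polysome values lay close together and the polysome values apart, with a ratio of -0.76 (SE 0.08). ZNF544, with 24.4, 7.39, 25.1 and 5.02 FPKM, followed the same order at -0.59 (SE 0.10), at the threshold. ZNF738 (1.70, 2.41, 2.23 and 1.83 FPKM, ratio -0.76, SE 0.16) and ZNF222 (1.87, 3.29, 2.57 and 2.84 FPKM, ratio -0.64, SE 0.28) had the same order of genotypes in each fraction at levels under 5 FPKM. The words of ZNF738, ZNF222 and ZNF544 were shared with other genes at 28.4%, 20.4% and 12.6%.

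The 8 members with higher translation efficiency were ZNF106, ZNF316, ZNF609, ZNF446, ZNF503, ZNF687, ZNF574 and ZNF281, of which ZNF574 and ZNF281 were named after their values were seen. All 8 had less sub-polysome FPKM in K177Q than in WT cells as deposited, and 6 had more polysome FPKM. Their choice on the ratio in part sets these directions too. The 8 higher members comprised 2 on chromosome 19 and 1 with a KRAB match. Over 10% of words were shared with other genes in 0 of them, in 4 of the lower 8 and in 17 of all 127 members.

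ZNF106, an RNA-binding protein, measured 3.36 and 3.65 FPKM in WT sub-polysomes and polysomes and 2.17 and 4.18 in those of K177Q cells. Its fractions were level in WT cells and nearly 2-fold apart in K177Q cells, for a ratio of 0.80 (SE 0.10). ZNF316, with 4.16, 8.28, 2.28 and 7.96 FPKM, had a ratio of 0.78 (SE 0.10) that came from sub-polysomes, its polysome values being close. ZNF446, a SCAN gene, behaved likewise with 5.67, 6.24, 3.18 and 5.61 FPKM and 0.66 (SE 0.18).

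ZNF609, a partner of the cohesin loader, measured 2.53, 2.48, 1.80 and 3.04 FPKM, which gave 0.76 (SE 0.12). Here K177Q sub-polysomes held the lowest value and K177Q polysomes the highest. The same order held for ZNF687, a zinc finger partner of ZNF592 in a chromatin complex, with 4.38, 6.04, 3.79 and 8.06 FPKM and 0.62 (SE 0.12). It held as well for ZNF503, a developmental co-repressor, with 1.79, 2.32, 1.34 and 2.77 FPKM and 0.64 (SE 0.23). ZNF574 had 6.48, 10.2, 5.30 and 12.8 FPKM and a ratio of 0.61 (SE 0.12). ZNF281, a transcription factor of the mesenchymal programme, had 3.12, 2.31, 2.32 and 2.63 FPKM and 0.59 (SE 0.16).

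**Figure D3:**
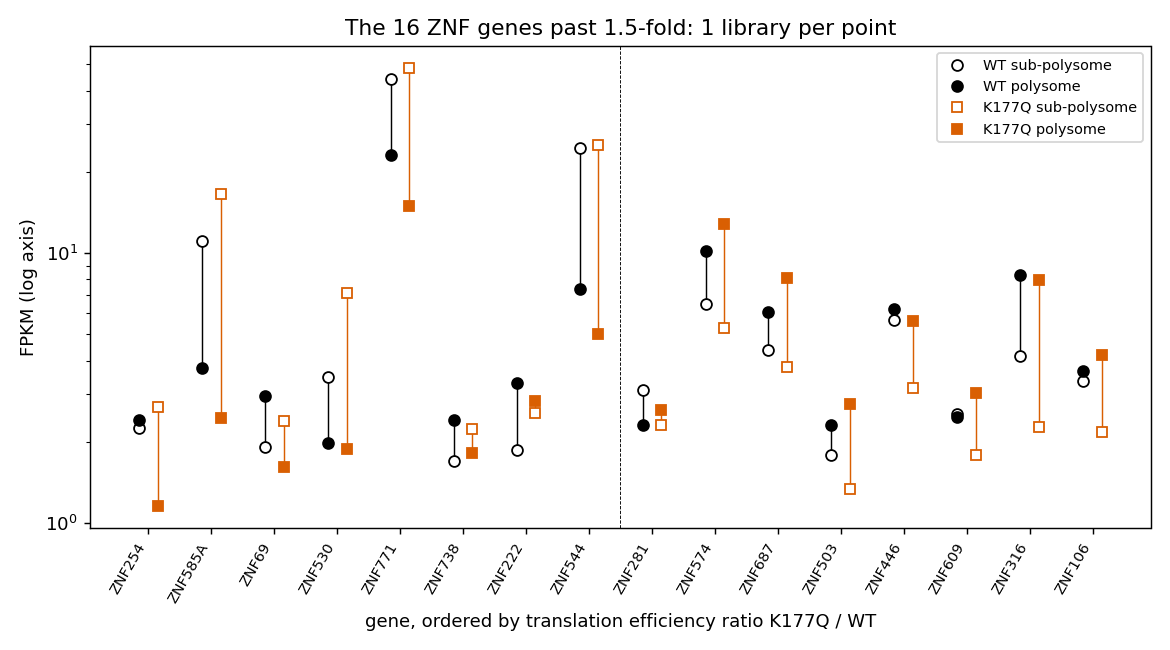
FPKM (log axis) of the 16 ZNF genes past 1.5-fold in each of the 4 libraries, 1 library per point; circles are METTL3 WT and squares METTL3 K177Q, open symbols sub-polysome and filled symbols polysome, and the dashed line parts the 8 lower from the 8 higher genes. In the lower 8 the open square lies above the open circle and the filled square below the filled circle, as for ZNF254 with 1.16 against 2.41 FPKM in polysomes. The genes were chosen on the ratio, which in part sets this order.

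Within polysomes alone, 7 members were 1.5-fold lower in K177Q cells (background 1.54%) and 1 higher (background 1.34%). The lower ones were ZNF254 (-0.999), ZNF69 (-0.83), ZNF32 (-0.68), ZNF771 (-0.62), ZNF367 (-0.61), ZNF717 (-0.61) and ZNF585A (-0.59), on the log2 scale, and the higher one was ZNF467 (0.69). Of the 90 members from 2 to under 10 FPKM, 5 were lower (5.56%, background of that level 2.46%). At or above 10 FPKM, 2 of 37 were lower (5.41%, background 0.853%). The median over members was -0.08, against -0.02 for the background, and it turned to 0.01 with TPM, when the background stood at 0.07. Within sub-polysomes, 6 were lower (background 1.9%) and 1 higher (background 2.82%): ZNF316 (-0.84), ZNF446 (-0.81), ZNF367 (-0.77), ZNF276 (-0.67), ZNF707 (-0.65) and ZNF106 (-0.61) below, and ZNF530 (1.01) above. The median was -0.15, against 0.00. All 6 lower in sub-polysomes were among the 90 members from 2 to under 10 FPKM (6.67%, background of that level 3.88%). ZNF367 was lower in both fractions (2.99, 3.92, 1.71 and 2.53 FPKM) and its translation efficiency ratio was 0.16. ZNF32, ZNF367, ZNF717, ZNF467, ZNF276 and ZNF707 were named after their values were seen.

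The members with a role at the ribosome or in RNA handling numbered 7 of a list of 10, with a median ratio of 0.27, 1 past the threshold upward and 0 downward (background 2.56% and 4.96%). ZNF593 and ZNF622, the assembly factors of the large subunit, had -0.31 (SE 0.05) and -0.26 (SE 0.11) as deposited, but -0.01 and 0.03 with TPM and -0.07 and -0.03 with equal totals outside ribosomal protein genes. ZNF598, the ubiquitin ligase that marks collided ribosomes, had 0.27 (SE 0.07), with 16.05, 22.8, 12.7 and 21.8 FPKM. ZNF830, a splicing-associated protein, had 4.74, 6.23, 3.17 and 5.79 FPKM and 0.46. ZNF385A, which binds RNA and p53, was mostly in sub-polysomes, with 8.40, 2.58, 8.52 and 3.40 FPKM and 0.37.

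Of the list of transcription and chromosome factors, 17 of 22 genes were members, with a median ratio of 0.34, 14 above 0 (82.4%, against 48.4% of the background), 3 past the threshold upward (17.6%, background 2.56%) and 0 downward (background 4.96%). Their median coding length was 2685 bases, and of the background mRNAs between 2031 and 5718 bases 76.9% were above 0 and 5.76% past the threshold upward. In 15 of the 17, K177Q sub-polysomes held less than WT sub-polysomes. They held more in 2 (11.8%), and in 31.1% of the background mRNAs between those lengths. ZNF207, which loads a checkpoint protein at kinetochores, was the most abundant with 31.6, 43.4, 24.7 and 40.1 FPKM and a ratio of 0.24 (SE 0.03). ZNF703 and ZNF217, both known as breast cancer oncogenes, had ratios of 0.42 and 0.41. For ZNF703 (15.8, 12.5, 12.1 and 12.9 FPKM) the value lay in sub-polysomes, whereas for ZNF217 (7.17, 3.89, 7.99 and 5.80 FPKM) it lay in polysomes. ZNF384 (7.68, 6.11, 6.80 and 7.33 FPKM), a transcription factor, had 0.43. ZNF76 (20.3, 13.4, 20.2 and 12.6 FPKM), a relative of the small nuclear RNA gene activator ZNF143, and ZNF644 (12.05, 6.86, 13.2 and 6.48 FPKM), a partner of the histone methyltransferase EHMT2, had -0.07 and -0.21 as deposited, which turned to 0.23 and 0.08 with TPM and to 0.17 and 0.02 with equal totals outside ribosomal protein genes.

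Of 10 well-studied KRAB repressors, ZNF274 alone reached 2 FPKM. ZNF274, which brings the methyltransferase SETDB1 to zinc finger gene clusters, measured 7.11, 10.4, 6.83 and 9.26 FPKM, with a ratio of -0.11 (SE 0.12). ZNF12 and ZNF81, which the study lists, fall under the limit for members. ZNF12 had 1.14, 0.509, 0.827 and 0.631 FPKM and ZNF81 1.11, 0.206, 0.591 and 0.270 FPKM, with ratios of 0.68 and 1.09. The study chose both on samples that include these, so they are no independent evidence of a direction.

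The machinery that KRAB proteins recruit was more fully carried: 20 of 20 listed genes reached 2 FPKM. It was also more polysomal, with a median of 0.76 in WT cells, 13 genes 1.5-fold higher in polysomes (65.0%, background 30.2%) and 1 lower (5.00%, background 15.7%). Its median ratio between genotypes was 0.18, with 14 above 0 (70.0%, background 48.4%) and 0 past the threshold on either side (background 2.56% and 4.96%). The median coding length of these genes was 3087 bases. Background mRNAs between 2031 and 5718 bases also had a median ratio of 0.18, with 76.9% above 0. In WT cells their median polysome to sub-polysome value was 0.36, with 37.5% at least 1.5-fold higher in polysomes and 9.65% lower. TRIM28, the co-repressor that binds KRAB, measured 101.6, 245.4, 93.4 and 247.3 FPKM.

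Sequence features were read from the GENCODE 44 canonical transcripts, which matched 127 of 127 members by symbol. A finger pattern was found in 122 members, with a median of 7 and a maximum of 21 matches, and a TGEKP linker in 60. A KRAB pattern was found in 34 members (26.8%), against 249 of 379 ZNF genes under 2 FPKM (65.7%). A pattern can miss a domain, so members without a KRAB match may still carry one. A SCAN pattern, which marks a dimerization domain, was found in 10. The members lie on 20 chromosomes, with 40 on chromosome 19 (31.5%, against 7.16% of background mRNAs), 15 on chromosome 16, 12 on chromosome 7 and 11 on chromosome 1.

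The median ratio of these classes is read against the other classes, since a change of scaling shifts all medians alike, whereas it alters the counts past 1.5-fold, for which the background was 2.56% higher and 4.96% lower. The 34 KRAB members had a median of -0.05, with 1 higher (2.94%) and 6 lower (17.6%), and the 93 without a match had 0.15, with 7 higher (7.53%) and 2 lower (2.15%). The 40 members on chromosome 19 had -0.13 (2 higher, 7 lower) and the 87 elsewhere 0.20 (6 higher, 1 lower). With TPM, the KRAB members were 8 higher and 3 lower with a median of 0.24. Those on chromosome 19 were 8 higher and 4 lower with 0.16, against 31 higher and 0 lower and 0.49 elsewhere. Of all background mRNAs, 16.2% were higher and 1.01% lower with TPM. The 611 other background mRNAs on chromosome 19 had -0.11, with 13 higher (2.13%) and 45 lower (7.36%), a median near that of the ZNF genes there. Their median mean level was 36.3 FPKM, against 5.72 FPKM for the 40 ZNF genes, so the 2 sets are not matched by level. Background mRNAs at or above 10 FPKM had -0.08, and those from 2 to under 10 FPKM had 0.10.

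KRAB members on chromosome 19 numbered 18, with a median of -0.18, 4 above 0, 0 higher and 6 lower, or 2 higher and 3 lower with a median of 0.11 under TPM. The 16 KRAB members elsewhere had 0.16, with 1 higher and 0 lower. Members without a KRAB match had -0.09 on chromosome 19 (22 genes, 2 higher and 1 lower) and 0.20 elsewhere (71 genes, 5 higher and 1 lower). Chromosome 19 thus had the lower median whether or not a KRAB match was present. Other library scalings shift these medians nearly alike, so they could not test that order.

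Among ZNF genes from 0.5 to under 2 FPKM, KRAB genes on chromosome 19 (79) had a median of 0.04 and those elsewhere (34) 0.06, a narrower gap than among the members. Genes of that range without a match had -0.07 on chromosome 19 (13) and 0.13 elsewhere (45). Of the 79, 12 were higher (15.2%) and 13 lower (16.5%), near the 15.5% and 13.1% of all 2183 mRNAs of that level. Shared sequence moved with the ratio among members as well. Over 10% of the 50-base words occurred in other genes for 17 members, whose median was -0.04 with 0 higher and 4 lower, and the 110 others had 0.12 with 8 higher and 4 lower. Of the 18 KRAB members on chromosome 19, the 12 without such sharing had -0.13, with 0 higher and 2 lower. Exons of another gene overlapped those of 26 members on the same strand and of 36 on the opposite strand, and the part of shared or overlapping sequence in these values was not tested.

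**Figure D4:**
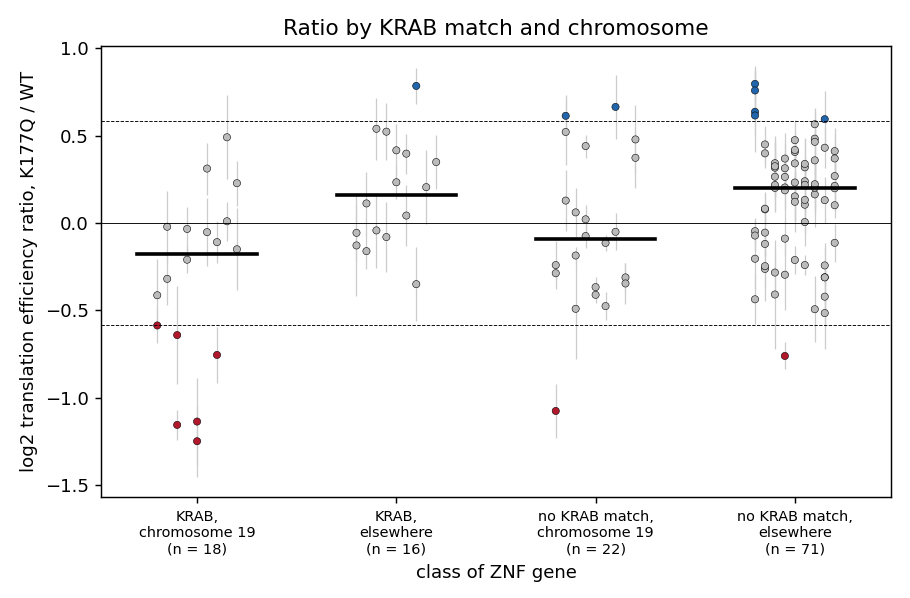
Log2 ratio of translation efficiency between METTL3 K177Q and METTL3 WT cells (vertical axis) for each of the 127 ZNF genes, by KRAB match and chromosome; points are genes, grey bars 1 SE of counting error, thick lines medians and dashed lines 1.5-fold, with red for lower and blue for higher genes. The medians are -0.18 and 0.16 for KRAB genes on chromosome 19 and elsewhere, and -0.09 and 0.20 for genes without a match.

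By number of finger matches, the medians followed no order: 0.41 for the 5 members without a match, 0.13 for 34 with 1 to 4, -0.02 for 46 with 5 to 9 and 0.16 for 42 with 10 or more, the last with 2 higher and 5 lower. The 10 SCAN members had -0.11. GGACT, 1 form of the consensus at which m6A is written, occurred in the coding sequence of 73.2% of members and 72.3% of background mRNAs. Its Spearman correlation per kilobase with the ratio was 0.10 over members (n = 127) and 0.03 over 9097 background mRNAs, across genes of the same libraries. m6A itself was not measured in these libraries.

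Coding length moved with the ratio. Members had a median coding length of 1683 bases, against 1263 for the background. The Spearman correlation of the ratio with coding length was 0.31 over the 127 members and 0.49 over 9097 background mRNAs, and with transcript length 0.39 and 0.50, descriptions across genes that share the libraries. Members were split into 4 groups of like size by coding length. In the longest group (2031 to 5718 bases) the median was 0.27, with 6 higher (18.8%) and 2 lower (6.25%), against 0.18, 5.76% and 1.13% for background mRNAs of that length. In the shortest group (228 to 1244 bases) it was -0.05, with 0 higher and 2 lower (6.25%), against -0.15, 0.962% and 8.22%. The middle groups gave 0.07 and -0.05, against 0.02 and 0.08. A smooth trend on coding length was also removed over all mRNAs, an alternative chosen after the data were seen. Then 2 members were higher (1.57%, background 1.85%) and 9 lower (7.09%, background 3.08%). The distance of the ZNF median from the background was then 0.06.

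**Figure D5:**
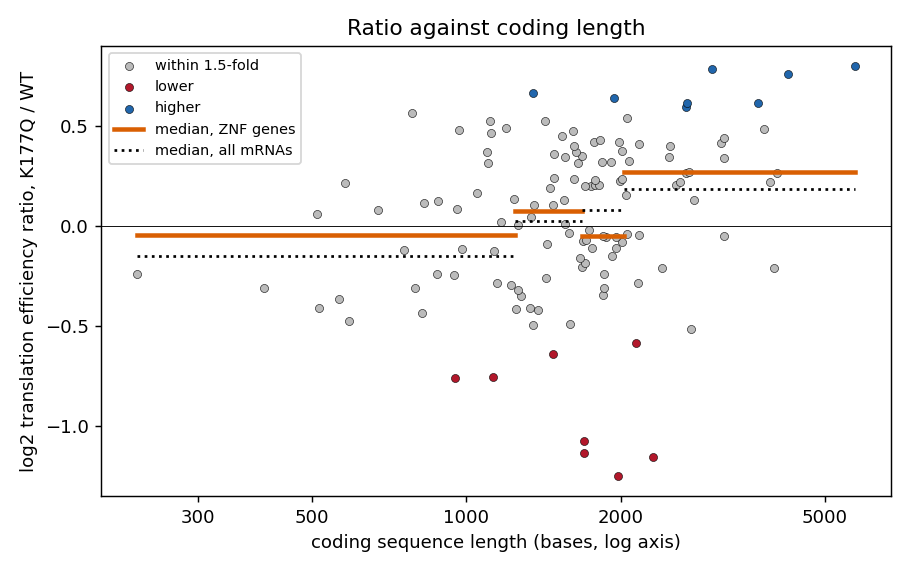
Log2 ratio of translation efficiency between METTL3 K177Q and METTL3 WT cells (vertical axis) against coding length in bases (log axis) for each of the 127 ZNF genes, 1 point per gene. Solid bars are medians of 4 groups of the ZNF genes by length and dotted bars medians of all background mRNAs in the same length bounds; both are highest in the longest group, at 0.27 and 0.18.

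Other zinc finger families are set beside the ZNF genes without a test, with the same background of 2.56% higher and 4.96% lower. The median ratio was 0.14 for 19 ZBTB genes (0 higher, 1 lower), -0.02 for 7 ZSCAN and ZKSCAN genes (0 and 0), 0.27 for 5 ZFP genes (1 and 0), 0.06 for 15 KLF and SP genes (1 and 1) and 0.24 for 11 ZC3H genes (2 and 0), whose fingers are of another kind and bind RNA. For 40 further mRNAs with 5 or more finger matches it was 0.16, with 3 higher and 1 lower.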

How the data were processed

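Poly(A)-selected, strand-directional libraries of sub-polysome and polysome RNA were sequenced on the NovaSeq6000. The authors deposited FPKM per gene, used as given; the submitters' processing notes name STAR 2.7, StringTie 2.1.5 and hg38 without their roles, and the annotation is not given in the sources used here. Another 4 value columns correspond to none of the samples listed, which are all replicate 2, and were left out; other replicates were not analysed here. The study's 1.5-fold threshold was applied to differences of log2(FPKM + 0.1). With 1 library per condition, no test was made. The members and gene lists were chosen with earlier results of these data known.

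Named genes were the 6 highest means, the 6 highest and 6 lowest ratios and the 3 highest and 3 lowest polysome to sub-polysome values in WT (at least 1 FPKM in each library), ZNF12 and ZNF81, and up to 6 members of each role list with the highest means. Finger, KRAB, SCAN, TGEKP and GGACT matches, lengths, overlaps and 50-base words shared with other genes came from GENCODE 44 (GRCh38) canonical transcripts, where a RefSeq table had been intended, with protein patterns set after the data were seen. SE took Poisson error on fragments from the lowest cluster of FPKM times length, its limits chosen after looking at the values. The calculation was run on simulated data with counting error alone and planted changes well past 1.5-fold. That run cannot show how calls near 1.5-fold hold between replicates or under other scalings. Alternatives were other pseudocounts, scalings, minimum levels and a 2-fold threshold. Scripts ran in Python 3.11.15 with statsmodels 0.14.6, scipy 1.17.1, numpy 2.4.6, pandas 2.3.3 and matplotlib 3.10.9.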

Additional observations from a re-analysis of the deposited data

Results flagged for a closer look

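In 6 of the 31 named members the polysome to sub-polysome difference had opposite signs in the genotypes, each with 1 library per fraction, and the difference was not tested. ZNF254 (-1.25), ZNF69 (-1.14) and ZNF738 (-0.76) were above 0 in METTL3 WT and below 0 in METTL3 K177Q cells, by the log2 ratio of translation efficiency. ZNF703 (0.42), ZNF384 (0.43) and ZNF609 (0.76) were below 0 in WT and above 0 in K177Q cells. Over all 127 members this held for 20 (15.7%), 11 positive in K177Q cells alone and 9 in WT cells alone, and for 11.7% of the background mRNAs. Which side of 0 such a value takes depends on how the libraries are scaled.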

How the results depend on the processing

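No paired analysis was possible because all 4 libraries are replicate 2, 1 per condition; for the same reason no library could be left out. Values are medians over members on the log2 scale and counts past 1.5-fold. With TPM, the ratio was 0.40 with 39 higher and 4 lower (background 16.2% and 1.01%). Polysomes gave 0.00733, sub-polysomes -0.35, and translation efficiency 0.0786 in WT and 0.43 in K177Q cells. With equal totals outside ribosomal protein genes, the ratio was 0.34 with 30 higher and 4 lower (background 11.8% and 1.43%). Sub-polysomes then gave -0.34 and K177Q translation efficiency 0.21. K177Q translation efficiency was -0.11 with size factors, and centring on all mRNAs gave -0.25 in WT and -0.22 in K177Q cells. A pseudocount of 1 gave 2 higher (1.57%, background 1.01%) and 5 lower (3.94%, background 3.69%). A 2-fold threshold gave 0 (background 0.218%) and 4 (3.15%, background 0.589%). With no minimum (510 genes) 62 were higher (12.2%, background 6.75%) and 59 lower (11.6%, background 7.40%). At 5 FPKM or more (69 genes) 4 were higher (5.80%, background 1.17%) and 3 lower (4.35%, background 4.83%). Translation efficiency was then -0.33 in WT and -0.15 in K177Q cells. With 1 FPKM in each library (126 genes) it was 0.0146 in K177Q cells. The alternatives that follow were chosen after seeing the data. From 2 to under 10 FPKM, translation efficiency was 0.0804 in WT and 0.17 in K177Q cells. Leaving out members that share over 10% of words gave 4 lower (3.64%, background 4.93%) and 0.0942 in K177Q cells. Removing the length trend gave 2 higher (1.57%, background 1.85%). The cause was not tested, beyond fewer or more genes entering. Of 186 values of single named genes under 6 other pseudocounts and scalings, 72 moved by over 0.1. Of the 186, 44 moved by more than their counting interval, taken here as nearly 2 SE. With TPM and with equal totals all 31 named genes moved by over 0.1, since these scalings shift all genes nearly alike. The sign turned in 12 of the 186 values, 7 with TPM and 5 with equal totals, in genes within 1.5-fold as deposited. Depth limits the faint members, since the SE reached 0.31.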
